A study of Mus musculus with 18 samples.

Results

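Nqo1, Hmox1, Gclc, Gclm, Sod1, Sod2, Cat, Gpx1, Mt1 and Mt2 are antioxidant and metallothionein genes whose products detoxify reactive oxygen species or bind metals. These 10 genes were taken by symbol from the 24431 gene rows of an expression table, and all 10 were found and passed the filter on low values. The table held poly(A) RNA sequencing of skeletal muscle, the rectus femoris of the thigh, from C57BL/6 mice. The 6 old 3TC mice were 19 months old and had received 3TC in their drinking water at 2 mg/mL for 6 weeks. The 6 old untreated mice were also 19 months old, and the 6 young untreated mice were 8 months old. Each arm held 3 females and 3 males, and no genotype other than the strain was labelled. The labels count each library as a sample of its own without naming the animals, so p-values measure the spread between these samples. 3TC, or lamivudine, is a nucleoside analogue that blocks reverse transcriptase, and no intake per mouse was given. The design asks what differs in old muscle from young muscle, and what 3TC changes in old muscle.

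The transcription factor NRF2, encoded by Nfe2l2, is held in check by KEAP1 and, once released by oxidants, enters the nucleus and binds antioxidant response elements together with small MAF proteins. NQO1, HMOX1 and both subunits of glutamate-cysteine ligase are among its best known targets. Superoxide dismutases turn superoxide into hydrogen peroxide, which catalase and glutathione peroxidase remove, and in muscle most superoxide comes from mitochondria and NADPH oxidases. Metallothioneins are small cysteine-rich proteins that bind zinc and copper, and their genes respond to metals through the factor MTF1 and to glucocorticoids through the glucocorticoid receptor.

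The promoters of Mt1, Mt2 and Gclm are shown because these windows held the most matches to the response elements named above among the 8 members with a promoter in the RefSeq table (GRCm38.p6). Each runs 5′ to 3′ on the + strand from 250 bases before to 50 bases after the start annotated in RefSeq. The gene coordinates given below are from GENCODE, whose starts of Mt1 and Mt2 differ from those in RefSeq. Capitals mark matches on either strand to an antioxidant response element, spelled TGACNNNGC, or to a metal response element, spelled TGCACNC or TGCGCNC.
Mt2, chr8:94172368-94172667: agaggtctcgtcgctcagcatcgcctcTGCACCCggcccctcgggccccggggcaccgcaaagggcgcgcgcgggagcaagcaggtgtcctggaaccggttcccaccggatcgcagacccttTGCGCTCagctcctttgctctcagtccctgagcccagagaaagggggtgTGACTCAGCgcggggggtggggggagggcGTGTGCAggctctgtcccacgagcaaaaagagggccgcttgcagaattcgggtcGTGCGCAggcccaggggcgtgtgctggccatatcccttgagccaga
Mt1, chr8:94178839-94179138: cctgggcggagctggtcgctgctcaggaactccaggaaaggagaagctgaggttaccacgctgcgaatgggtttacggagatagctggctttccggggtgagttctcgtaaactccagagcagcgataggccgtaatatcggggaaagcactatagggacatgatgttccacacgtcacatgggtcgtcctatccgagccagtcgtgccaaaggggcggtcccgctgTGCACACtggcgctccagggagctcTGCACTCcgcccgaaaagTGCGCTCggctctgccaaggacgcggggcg
Gclm, chr3:122245307-122245606: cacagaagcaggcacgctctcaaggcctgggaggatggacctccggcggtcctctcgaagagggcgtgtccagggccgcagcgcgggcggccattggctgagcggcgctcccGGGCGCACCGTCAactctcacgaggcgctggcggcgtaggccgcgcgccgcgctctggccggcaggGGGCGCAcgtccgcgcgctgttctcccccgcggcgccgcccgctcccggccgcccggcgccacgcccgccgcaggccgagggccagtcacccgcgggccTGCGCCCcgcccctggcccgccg

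The Mt2 window held 1 antioxidant and 4 metal response elements, and the Mt1 window held 3 metal response elements. The Gclm window held 1 antioxidant response element and 3 metal response elements, of which 1 overlapped the antioxidant element. Sod1 held 1 antioxidant response element, and no match lay in the windows of Nqo1, Cat, Gpx1 and Sod2. Of 32851 promoters of the same length, 12.4% held the antioxidant and 25.7% the metal response element. At least 3 metal response elements lay in 1.97% of promoters and at least 4 in 0.517%. A match describes the letters of the window and not a bound site. Mt2 (chr8:94172664-94173568) and Mt1 (chr8:94179082-94180327) are neighbours on the + strand of chromosome 8, and Gclm lies at chr3:122245557-122270732 on the + strand (GRCm38, the assembly also called mm10).

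The libraries held 64.2 to 85.4 M recovered reads, and values below are normalised counts scaled by the authors to a common total. The labelled tissue matched its markers, since the 12 skeletal muscle markers summed to 8179362 to 10928480.0 in old 3TC, 7392423 to 10794789 in old untreated and 6318375 to 11393693 in young untreated libraries. Some libraries also held transcripts of other tissues. The 24 liver markers found summed to 1701 to 379870.1 in old 3TC, 6087 to 47190.4 in old untreated and 4108 to 192376 in young untreated libraries, with the highest sums in old 3TC male 2 and young untreated female 8. The 16 macrophage markers summed to 11552 to 26273, 17338 to 49443 and 4828 to 30113 in the same order of arms, and the 12 adipocyte markers to 96475 to 239598, 121646 to 516382 and 52600.1 to 213997. The 16 brain markers summed to 28733 to 51186.3, 30402 to 50481 and 27899.9 to 64346 in that order of arms. The highest brain sums of the arms were in old 3TC male 2, old untreated male 1 and young untreated male 8. No liver, macrophage, adipocyte or brain marker found was at 0 in all 18 libraries. In such bulk tissue, fewer cells of a type and less RNA per cell cannot be told apart.

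Per kilobase of merged exons, the members formed 3 tiers over all 18 libraries. Gpx1, Cat and Sod1 stood highest, at means of 3802, 3241 and 3231 normalised counts per kb. Sod2, Mt2, Mt1 and Nqo1 followed at 1442, 1106, 1068 and 989, and Hmox1, Gclc and Gclm stood lowest at 299.9, 278 and 193. Within each tier neighbouring genes differed by less than the SD between libraries of the more variable gene, while Sod1 and Sod2, and Nqo1 and Hmox1, at the borders of the tiers, lay apart by more than either SD. The tiers depend on the merged exon lengths, which count every annotated exon of a gene. Before division by length Sod1 (3970 bases) averaged 12829 normalised counts and Sod2 (10008 bases) 14427. The SD of Mt2 over the 18 libraries exceeded its mean.

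**Figure D1:**
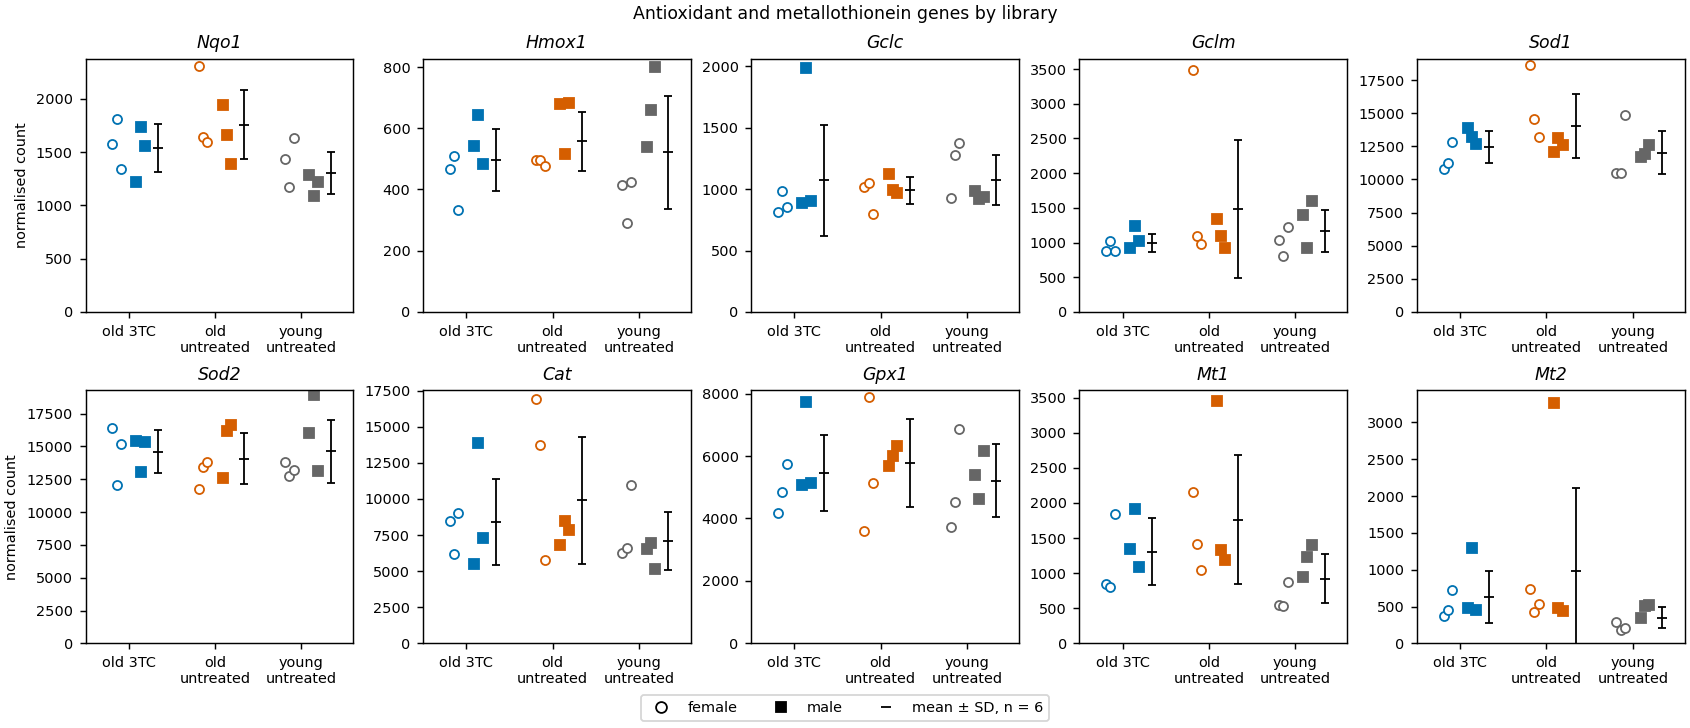
Normalised counts (linear axes from 0) of the 10 genes in each of the 18 libraries, with old 3TC, old untreated and young untreated libraries from left to right, open circles for females, filled squares for males, and a bar for the mean ± SD of the 6 libraries of an arm (the lower bar of Mt2 in old untreated libraries is cut at 0). Groups overlap in every panel, and single libraries stand far above their arm for Gclm (3494, old untreated), Gclc (1991, old 3TC) and Mt2 (3262, old untreated).

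No member passed the threshold of an adjusted p under 0.05 in either main comparison. With age, that is in old untreated against young untreated muscle, 0 of 10 members were called, where 0.367% of all 16060 genes tested were. With 3TC, in old 3TC against old untreated muscle, 0 of 10 members were called and 0% of all genes (limma, with 1633 genes at an unadjusted p under 0.05). For 3TC, edgeR and DESeq2 on the recovered reads also called 0 genes, with 1185 and 1412 genes at an unadjusted p under 0.05. With age, 8 members had a log2 change above 0 and 2 below, their median was 0.21, and the median of all genes tested was 0.16. With 3TC, 2 members lay above 0 and 8 below, their median was −0.18, and that of all genes −0.15. Those shifts of all genes came to 0 and −0.014 under median-of-ratios scaling, and a change above 0 was estimated for 79.1% of all genes with age and 20.04% with 3TC. The age and 3TC changes share the old untreated arm with opposite sign, so opposite signs in them are partly built in. Of the 59 genes called with age 57 were higher and 2 lower, against 16 higher and 8 lower of 24 under median-of-ratios scaling. Fold changes are on the scale of log2 of the normalised count plus 1, and errors of changes are standard errors.

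Nqo1 (chr8:107388225-107403206, − strand) encodes an enzyme that reduces quinones without forming radicals, and came closest to the threshold with age. It stood at 1224, 1568 and 1813 normalised counts (lowest, median and highest of 6) in old 3TC, at 1393, 1652 and 2313 in old untreated and at 1088, 1255 and 1633 in young untreated libraries. All 6 old untreated libraries lay above the young mean and 4 lay above every young library, but the groups overlapped. The age change was 0.42 ± 0.12 log2 (limma adjusted p = 0.0822), or 1.34-fold, with a 95% interval of 0.16 to 0.68. It was close in females (0.38 ± 0.18) and in males (0.46 ± 0.18). Without young untreated female 8, the highest young library, Nqo1 was called (adjusted p = 0.0473), and under median-of-ratios scaling its change was 0.26 (adjusted p = 0.246). With 3TC Nqo1 differed by −0.18 ± 0.12 (adjusted p = 0.553), and 5 of 6 old 3TC libraries stood below the mean of old untreated ones. That mean holds the highest library, old untreated female 1, without which the 3TC change was −0.11.

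Hmox1 (chr8:75093621-75100589, + strand), the inducible heme oxygenase that splits heme into biliverdin, carbon monoxide and iron, had no difference between arms that passed the test. Its lowest, median and highest values were 335, 496 and 643 in old 3TC, 477, 506 and 683 in old untreated and 289, 481 and 800.4 in young untreated libraries. The young arm was the widest and held both the lowest and the highest library of the 18. The log2 change was 0.16 ± 0.15 with age (adjusted p = 0.535) and −0.18 ± 0.15 with 3TC (adjusted p = 0.614). The age value turned to −0.0062 under median-of-ratios scaling and to −0.32 with a score of macrophage markers as a covariate, an alternative added after the data were seen.

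Gclc and Gclm encode the catalytic and the modifier subunit of glutamate-cysteine ligase, which carries out the rate-limiting step of glutathione synthesis. Gclc (chr9:77754535-77794485, + strand) stood at 817, 893 and 1991 in old 3TC, 798, 1006 and 1127 in old untreated and 923, 960.2 and 1379.8 in young untreated libraries. The highest of these was old 3TC male 2, the library with the most liver marker counts, and the other 5 old 3TC libraries lay at 984 or less. Gclc differed by −0.10 ± 0.18 with age and by 0.039 ± 0.18 with 3TC, and the 3TC value turned to −0.16 without that library.

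Gclm had the widest spread of the 8 members other than metallothioneins in old untreated muscle, with an SD of 66.9% of its mean. It stood at 880.3, 972 and 1234 in old 3TC, 917, 1096 and 3494 in old untreated and 801, 1131 and 1602 in young untreated libraries. Old untreated female 1 alone, at 3494, set the top of the old arm, and the next highest old untreated library was at 1335. Gclm differed by 0.21 ± 0.26 with age (adjusted p = 0.639), which turned to −0.094 without that library. With 3TC it differed by −0.41 ± 0.26 (adjusted p = 0.538), which was −0.10 without the same library. The ratio of Gclm to Gclc normalised counts had a median of 1.04 in old 3TC, 1.14 in old untreated and 1.06 in young untreated libraries, and reached 3.42 in old untreated female 1. Gclm overlaps the predicted genes Gm6061 on the same strand and Gm17494 on the opposite strand, and 3.92% of its 50-base stretches occur in other genes, so some of its reads could have been shared.

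Sod1 (chr16:90220754-90226329, + strand), the cytosolic copper-zinc superoxide dismutase, was among the steadiest members. It stood at 10805, 12768 and 13896 in old 3TC, 12047, 13143 and 18666 in old untreated and 10456, 11815 and 14849 in young untreated libraries. All 6 old untreated libraries lay above the young mean, and none of the 6 old 3TC libraries reached the mean of the old untreated ones. The log2 change was 0.22 ± 0.11 with age (adjusted p = 0.247) and −0.16 ± 0.11 with 3TC (adjusted p = 0.554). Without old untreated female 1, the highest library, these were 0.13 and −0.071.

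Sod2 (chr17:13006846-13040063, + strand), the mitochondrial manganese superoxide dismutase, differed between arms by less than its spread. It stood at 12086, 15261 and 16441 in old 3TC, 11746, 13609.9 and 16636 in old untreated and 12715, 13512 and 18905 in young untreated libraries. The 95% interval of its log2 change ran over −0.28 to 0.17 with age and −0.16 to 0.28 with 3TC, the narrowest intervals of the 10 members. For Sod2, 21.0% of 50-base stretches also occur in other genes, and for Sod1 3.42%, and Sod1 overlaps Scaf4 on the opposite strand. The strandedness of the libraries was not given in the sources used here, so such reads cannot be told apart.

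Cat (chr2:103453849-103485160, − strand), the peroxisomal catalase, and Gpx1 (chr9:108338903-108340343, + strand), a selenium-dependent glutathione peroxidase, both remove hydrogen peroxide. Cat stood at 5478, 7905 and 13864 in old 3TC, 5747, 8164 and 16925 in old untreated and 5172, 6561 and 10997 in young untreated libraries. The high end of each arm was 1 or 2 libraries, namely old 3TC male 2, old untreated females 1 and 2, and young untreated female 8. Old 3TC male 2 and young untreated female 8 had the most liver marker counts, and old untreated female 2 the most adipocyte marker counts. Cat differed by 0.42 ± 0.25 with age (adjusted p = 0.325) and by −0.20 ± 0.25 with 3TC (adjusted p = 0.739). The 3TC change was −0.39 without old 3TC male 2 and −0.035 without old untreated female 1. The age change was 0.26 when that last library was left out, without the pair of liver-rich libraries 0.52, and with liver and brain scores as covariates 0.59. With liver, macrophage, adipocyte and red blood cell scores together it was −0.087, of the opposite sign.

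Gpx1 stood at 4176, 5103 and 7719 in old 3TC, 3609, 5837 and 7887 in old untreated and 3717, 5008 and 6864 in young untreated libraries. Old untreated female 1, the highest library for Cat, was the lowest of the 18 for Gpx1. Gpx1 differed by 0.14 ± 0.17 with age and −0.073 ± 0.17 with 3TC. The age change was −0.027 and the 3TC change 0.067 under median-of-ratios scaling, each with the opposite sign.

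The metallothioneins Mt1 and Mt2 had the largest estimated age changes of the 10 members, and neither passed. Mt1 stood at 805, 1217 and 1909 in old 3TC, 1046, 1368 and 3455 in old untreated and 535, 916 and 1394 in young untreated libraries. Mt2 stood at 365, 466 and 1299.7 in old 3TC, 427, 504 and 3262 in old untreated and 186, 323 and 519 in young untreated libraries. For both genes all 6 old untreated libraries lay above the young mean and 3 lay above every young library.

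The age change was 0.89 ± 0.28 for Mt1 (adjusted p = 0.0937, 1.85-fold) and 1.12 ± 0.40 for Mt2 (adjusted p = 0.128, 2.17-fold). Old untreated male 1 was the highest library, at 3455 for Mt1 and 3262 for Mt2. This library also had the highest sum of brain markers in its arm, while the brain score was highest in a female of that arm. The part of brain transcripts in its Mt1 and Mt2 values was not tested. Without old untreated male 1 the age change of Mt2 was 0.72 and that of Mt1 0.71, and without old untreated female 1 as well they were 0.54 and 0.51. With 3TC the differences were −0.38 ± 0.28 for Mt1 (adjusted p = 0.571) and −0.29 ± 0.40 for Mt2 (adjusted p = 0.755), and without the same library they were −0.20 for Mt1 and 0.11, of the opposite sign, for Mt2. Mt1 shared no 50-base stretch with another gene, nor did Mt2, which overlaps Gm45774 on the opposite strand.

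Mt1 and Mt2 varied together across libraries. Over the 18 libraries Pearson's r of log2 values was 0.890 (permutation p = 1e-05, the smallest that 100000 permutations can give) and Spearman's rho was 0.829 (permutation p = 5e-05). After adjustment over the 45 pairs of members both p-values stayed under the threshold (0.00045 and 0.00225), and this was the 1 pair of 45 for which they did. Without old untreated male 1 and young untreated female 3, the libraries farthest from the median of Mt1, r was 0.791. The permutations ran freely over arms and sexes, so their p-values include shifts that both genes share between groups. For residuals after arm and sex r was 0.812, which was not tested. Within arms of 6 libraries r was 0.855 in old 3TC, 0.911 in old untreated and 0.806 in young untreated muscle. The ratio of Mt1 to Mt2 normalised counts had medians of 2.37, 2.76 and 2.70 in these arms, and its lowest value, 1.06, was in old untreated male 1.

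**Figure D2:**
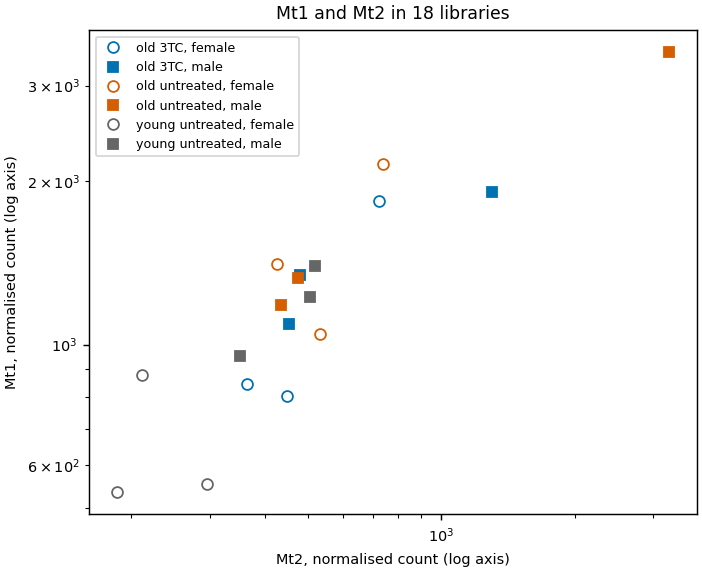
Normalised counts of Mt1 (vertical, log axis) against Mt2 (horizontal, log axis) in 18 libraries, coloured by arm, with open circles for females and filled squares for males. The points run along a diagonal, with old untreated male 1 at the top right (3455 for Mt1 and 3262 for Mt2).

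Old 3TC muscle was also set against young untreated muscle. Here 0 of 10 members were called, where 0.0125% of all genes were (2 of 16060). Mt2 differed by 0.82 ± 0.40 (adjusted p = 0.542), Mt1 by 0.51 ± 0.28 (adjusted p = 0.595) and Nqo1 by 0.24 ± 0.12 (adjusted p = 0.568). All 6 old 3TC libraries lay above the young mean for Mt2, 4 for Mt1 and 5 for Nqo1. The other 7 members differed by −0.20 (Gclm) to 0.22 (Cat). The Cat value was 0.023 without old 3TC male 2 and 0.34 without young untreated female 8, the pair with the most liver marker counts. This comparison shares its libraries with both comparisons above.

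**Figure D3:**
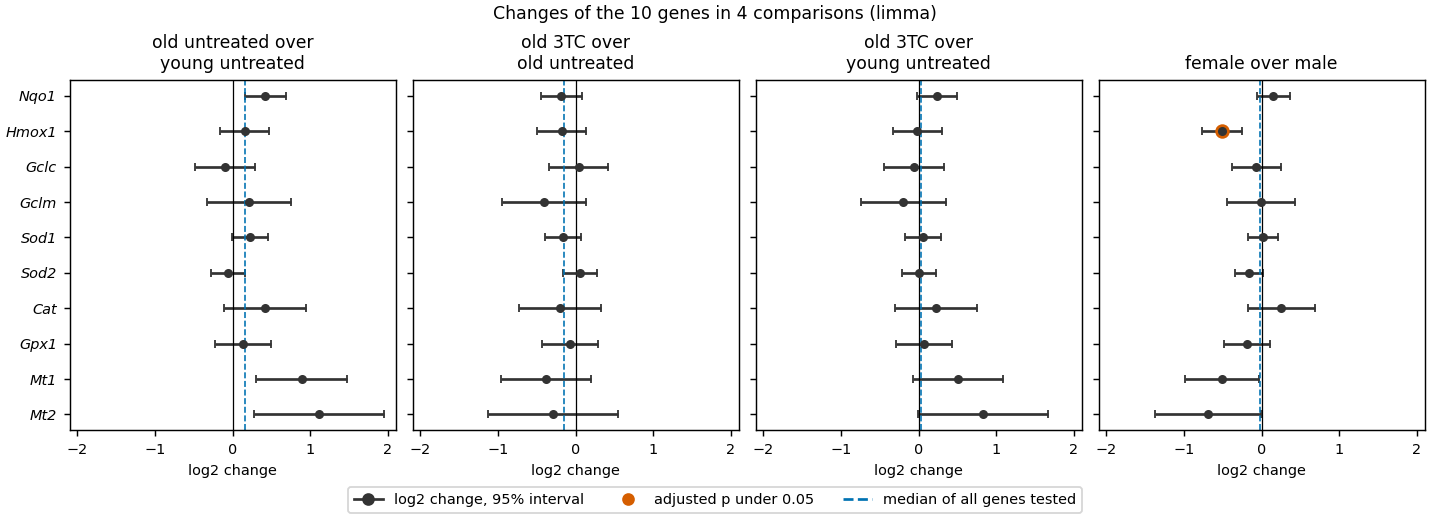
Log2 changes of the 10 genes with 95% intervals (points and bars) in 4 comparisons, with old untreated over young untreated, old 3TC over old untreated, old 3TC over young untreated and female over male from left to right. The dashed line is the median of all genes tested. Only Hmox1 in the comparison of sexes has an adjusted p under 0.05, at a log2 change of −0.51.

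Hmox1 was lower in females than in males across the 3 arms, the 1 member of 10 called in that comparison, where 2.33% of all genes tested were called. Hmox1 stood at 467, 509 and 335 in old 3TC females and at 541, 643 and 483 in old 3TC males. Old untreated females had 497, 495 and 477, against 680.1, 516 and 683 in old untreated males. Young untreated females had 416, 289 and 423, against 539, 659 and 800.4 in young untreated males. The sexes did not overlap within the old untreated and young untreated arms and overlapped in the old 3TC arm. All 9 females lay below the mean of the males, and 6 lay below every male.

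Hmox1 averaged 434 ± 77.1 in the 9 females and 616 ± 103 in the 9 males (SD), a log2 change of −0.51 ± 0.12 or 0.703-fold (limma adjusted p = 0.0358). On the recovered reads the adjusted p was 0.0206 in edgeR and 0.00204 in DESeq2. The call was near the threshold, since leaving out 1 library ended it in 10 of 18 cases, at adjusted p of 0.0502 to 0.0746, with log2 changes between −0.56 and −0.44 over all 18. Those libraries were old 3TC female 8 and male 2, old untreated female 3 and males 1 and 6, and young untreated females 1, 3 and 8 and males 2 and 8.

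Macrophage markers, and those of other cell types, also differed between the sexes in their medians. Of 16 macrophage markers 3 fell in females and 0 rose, the median of the 16 was −0.74, and that of all genes −0.024. Fcgr1, the high-affinity IgG receptor, changed by −1.70 ± 0.30 (limma adjusted p = 0.00448), Adgre1, the F4/80 antigen, by −1.06 ± 0.23 (0.0177), and Cd163, the scavenger receptor for hemoglobin, by −0.80 ± 0.20 (0.0469). The summed level of the 16 markers was 4828 to 20366 in females and 8321 to 49443 in males. With a score of these markers as a covariate, an alternative added after the data were seen, the Hmox1 difference was −0.17 (adjusted p = 0.835). With that covariate 73 genes of the whole table were called between the sexes, against 374 without it. The score itself had a median of 9.0 in females and 9.69 in males, so its part cannot be told apart from that of sex. With scores of liver and brain markers the Hmox1 difference was −0.51 (adjusted p = 0.0588). Of 24 liver markers 23 lay above 0 in females against males (median 2.66, 0 called), of 15 brain markers 14 (median 0.48, 0 called) and of 9 slow fibre markers 8 (median 0.93, 0 called). Fibroblast markers had a median of −0.35 with 0 of 10 above 0, and endothelial markers one of −0.26 with 1 of 10 above 0, with 0 called in both. Car3 rose in females among 12 adipocyte markers (median −0.46), and Slc4a1 among 7 red blood cell markers (median 0.22). What part these cell types, macrophages among them, had in the Hmox1 difference was not tested. Of 12663 genes searched, those with levels most like Hmox1 over the 18 libraries were Fcgr1 (Spearman's rho 0.886), Gpr34, a lysophospholipid receptor of macrophages and microglia (0.870), and Rit1, a small GTPase (0.868).

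**Figure D4:**
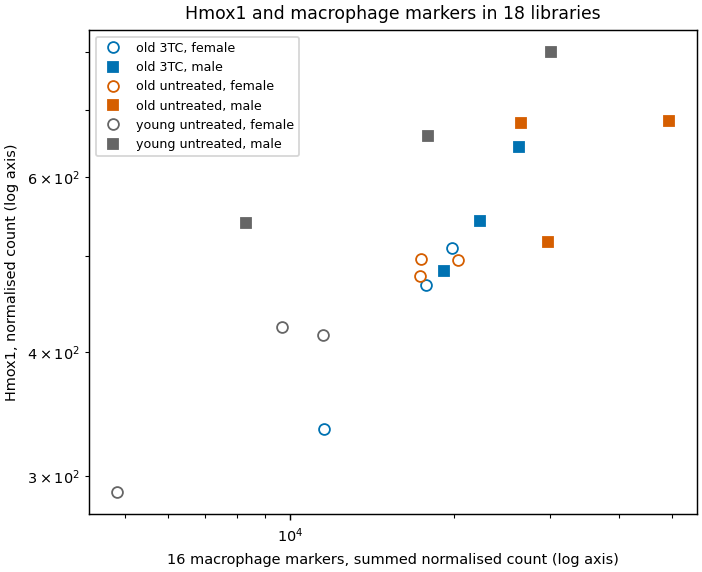
Hmox1 (vertical, log axis) against the summed normalised count of 16 macrophage markers (horizontal, log axis) in 18 libraries, coloured by arm, with open circles for females and filled squares for males. Hmox1 is lowest (289) in the library with the lowest marker sum, young untreated female 3, and the libraries with the highest sums are males.

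Among the other 9 members, Mt1 differed by −0.51 ± 0.23 (adjusted p = 0.296) and Mt2 by −0.69 ± 0.33 (adjusted p = 0.324) between females and males. Mt1 averaged 1118 ± 566 in females and 1542 ± 765 in males, and Mt2 436 ± 201 and 864 ± 942. All 9 females lay below the male mean for Mt2, a mean raised by old untreated male 1, without which its change was −0.42. The remaining 7 members differed by −0.19 (Gpx1) to 0.26 (Cat).

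No member's age change or 3TC change was shown to differ between the sexes. In the test of the difference itself 0 of 10 members and 0% of all genes were called for age (limma, with 783 genes at an unadjusted p under 0.05), and likewise 0 of 10 and 0% for 3TC (477 genes). edgeR called 0 genes in both tests, with 1093 and 610 genes at an unadjusted p under 0.05. The member with the smallest p for 3TC was Sod1, which changed by −0.40 ± 0.14 in females and 0.076 ± 0.14 in males, a difference of −0.47 ± 0.20 (limma unadjusted p = 0.0312, adjusted p = 0.9997). Old 3TC females had 10805, 11274 and 12847 for Sod1, against 18666, 14541 and 13171 in old untreated females. For age it was Gclm, with 0.63 ± 0.35 in females and −0.21 ± 0.35 in males. That difference was 0.83 ± 0.50 with all libraries and 0.25 without old untreated female 1.

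The genes around the members in their pathways were described by lists that do not hold the members. With age, no gene of 9 of the 10 lists was called, and in the list of 20 glucocorticoid-responsive genes Sgk1, a kinase induced by glucocorticoids, fell by 0.66 (SE 0.13, limma adjusted p = 0.0398) and no other member was called. Of 14 tested NRF2 regulators 10 had a change above 0, with a median of 0.067, and of 34 other NRF2 targets 25, with a median of 0.19, against 0.16 for all genes. Nfe2l2 itself averaged 2907 ± 235 in old 3TC, 2854 ± 219.8 in old untreated and 2967 ± 379.9 in young untreated libraries, and its age change was −0.049 ± 0.090. The targets nearest the threshold were Akr1b8, an aldo-keto reductase (0.98 ± 0.25, adjusted p = 0.063), and Gstm2, a glutathione transferase (0.40 ± 0.12, 0.0824). Among the regulators these were Nfe2l1, a factor related to NRF2 (0.28 ± 0.082), and Dpp3, a KEAP1-binding peptidase (0.28 ± 0.12).

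The lists of glutathione, thioredoxin and superoxide genes had medians near that of the whole table with age. Their medians were 0.15 over 24 genes, 0.11 over 19 and 0.12 over 12. The genes of smallest p were the glutathione peroxidases Gpx4 (0.35 ± 0.092) and Gpx3 (0.51 ± 0.14), the peroxiredoxin Prdx6 (0.30 ± 0.10) and thioredoxin Txn1 (0.31 ± 0.12), and the uncoupling protein gene Ucp2 (0.80 ± 0.22) and Sod3, the extracellular superoxide dismutase (0.65 ± 0.32). In the 13 tested genes for producers of reactive oxygen species the median was 0.71, with 12 above 0 and 0 called, led by Xdh, xanthine dehydrogenase (0.71 ± 0.19), and Rac2, a GTPase of the phagocyte oxidase (1.36 ± 0.36). Macrophage markers moved with this list, since all 16 lay above 0 with age, with a median of 1.12 and 0 called, and their part in it was not tested.

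Of 23 heme and iron genes 19 lay above 0 with age (median 0.13), with the smallest p for Cd163 (0.87 ± 0.25) and the ferritin light chain Ftl1 (0.45 ± 0.14). Of 25 metal homeostasis genes 22 lay above 0 with age (median 0.19) and 0 with 3TC (median −0.16), and none was called in either. Of all genes tested 79.1% lay above 0 with age (median 0.16) and 20.04% with 3TC (median −0.15). The metal homeostasis genes included the zinc transporter Slc39a7 (0.31 ± 0.10 with age) and Mtf1, the metal-sensing factor. Mtf1 changed by 0.27 ± 0.10 with age and −0.30 ± 0.10 with 3TC. Mtf1 averaged 1415 ± 91.8 in old 3TC, 1758 ± 306 in old untreated and 1446 ± 97.7 in young untreated libraries. Its highest value, 2336, was in old untreated female 1, and the median of that arm was 1696. The acute-phase and stress list of 13 genes had a median of 0.63 with age, with the smallest p for the cytokine receptor Osmr (0.63 ± 0.20) and for Lcn2, an iron-siderophore carrier (1.65 ± 0.69). The median of the glucocorticoid-responsive list was 0.0092.

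The medians of other cell types' markers also lay apart from 0 in the age comparison. The 12 adipocyte markers all lay above 0 (median 1.41), and of them Car3, a carbonic anhydrase of fat and muscle, rose (1.48 ± 0.28, limma adjusted p = 0.0304) and no other was called. Of the 24 liver markers 1 lay above 0 (median −3.60, 0 called). The medians with age were 0.60 for red blood cell, 0.42 for slow fibre, 0.28 for brain, 0.27 for fibroblast, 0.14 for endothelial, 0.011 for skeletal muscle and −0.11 for fast fibre markers, with 0 called in each. The part of these markers in the age values of the pathway lists was not tested. With 3TC no marker of any list was called, and the medians ran from −1.46 (brain) to 0.48 (slow fibre).

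With 3TC no gene of any of the 10 lists was called. The list medians ran from −0.27 (producers of reactive oxygen species) to 0.0080 (glucocorticoid-responsive genes), beside −0.15 for all genes. The smallest p-values were those of Slc39a6, a zinc importer (−0.42 ± 0.12), and Atp7a, a copper pump (−0.44 ± 0.13), each with an adjusted p of 0.48. The cystine importer gene Slc7a11 changed by −0.89 ± 0.42 (adjusted p = 0.49), and the peptidase gene Ggt7 by −0.69 ± 0.31 (0.486). Old untreated female 1 was the highest of 18 libraries for Slc7a11, and its change without that library is not given here. Bach1, a repressor at NRF2 sites, changed by −0.22 ± 0.13, Mafg, a small MAF protein, by −0.28 ± 0.12, and the NADPH oxidase gene Nox4 by −0.36 ± 0.23. The 16 macrophage markers all lay below 0 with 3TC (median −0.41, 0 called), as did the 25 metal homeostasis genes, where 20.04% of all genes lay above 0.

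Between the sexes 6 pathway genes other than Hmox1 were called, where 2.33% of all 16060 genes tested were. Slc30a2, which encodes a vesicular zinc transporter, averaged 56.9 ± 24.5 in females and 586 ± 129.6 in males, a log2 change of −3.44 ± 0.20 (limma adjusted p = 4.03e-09), the largest among the pathway genes called. Gstm2 rose in females, with 8549.9 ± 951 in females and 5414 ± 1443 in males (0.70 ± 0.10, adjusted p = 0.000374). Sesn1, a stress-responsive sestrin, also rose (0.56 ± 0.10, 0.00302). Msrb1, a selenoprotein that repairs oxidised methionine, fell (−0.53 ± 0.081, 0.00106), as did Cyba, a subunit of the phagocyte NADPH oxidase (−0.67 ± 0.17, 0.0404), and Cd163. The calls of Cyba and Cd163 lay nearer the threshold than that of Hmox1, and their values with libraries left out are not given here. Of 34 other NRF2 targets tested 1 was called, of 25 metal homeostasis genes 1, of 19 thioredoxin and peroxiredoxin genes 2, of 13 producers of reactive oxygen species 1, of 23 heme and iron genes 1, and 0 in the remaining 5 lists.

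The members differed in how far libraries of the same arm and sex lay apart. Against the 1000 genes nearest to each in level, the residual SD of Mt1 exceeded that of 97.2%, Mt2 96.5%, Cat 96.0% and Gclm 95.3%. Gpx1 (87.7%) and Gclc (85.5%) followed, and Nqo1 (64.3%), Hmox1 (53.5%), Sod1 (49.2%) and Sod2 (43.8%) lay near the middle. Old untreated female 1 was the highest of 18 libraries for Nqo1, Gclm, Sod1 and Cat, and for 11 of 34 other NRF2 targets, among them Srxn1 and Txnrd1. It was also the highest for 24.3% of all genes tested. Old untreated male 1 was the highest for Mt1 and Mt2 and for 0 of the 34 other NRF2 targets, and it was the highest for 8.44% of all genes tested.

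**Figure D5:**
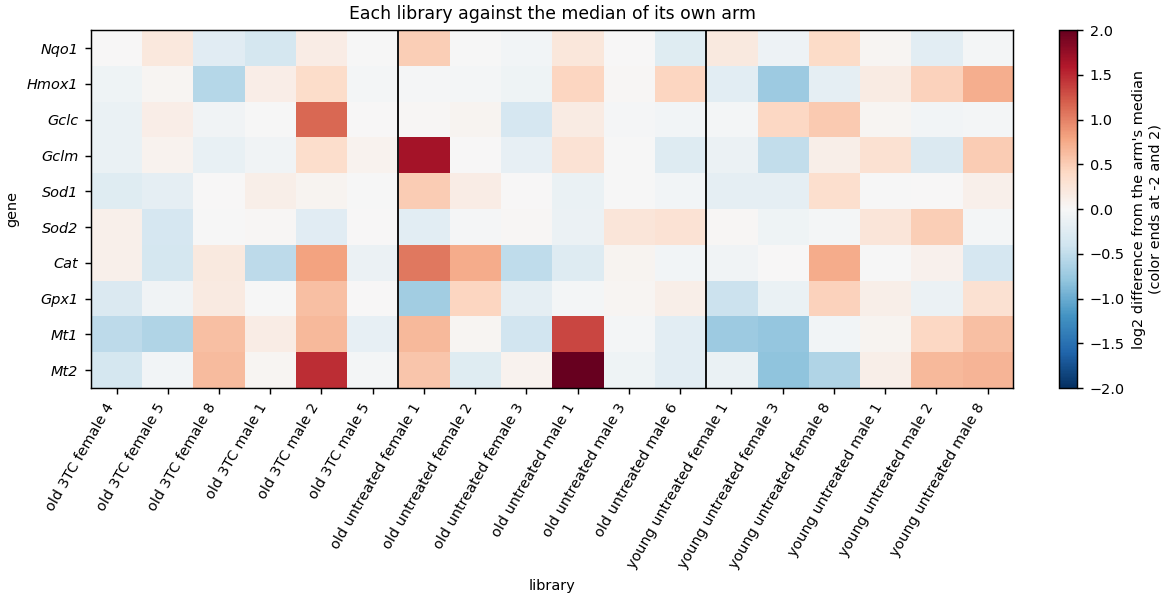
Log2 difference of each library from the median of its own arm, for the 10 genes (rows) in 18 libraries (columns, with old 3TC, old untreated and young untreated from left to right). Red is above and blue below the arm's median, and the colour ends at −2 and 2. Old untreated male 1 stands out for Mt2 (beyond the colour's end, at 2.69) and Mt1 (1.34), old untreated female 1 for Gclm (1.67) and Cat (1.05), and old 3TC male 2 for Mt2 (1.48) and Gclc (1.15).

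The genes whose levels most resembled each member over the 18 libraries were taken by Spearman's rho among 12663 genes, as a description. For Nqo1 they were Dpy19l3 (0.957), Slc39a7 (0.940) and the row of the microRNA gene Mir6925 (0.930). For Sod2 they were Grb14 (0.938), the mitochondrial nuclease gene Endog (0.924) and Oxct1, an enzyme of ketone body use (0.922), and for Sod1 Txn1 (0.851), Tomm6 (0.843) and Morf4l1-ps1 (0.835). For Gclc they were Fam134c (0.909), Tbl2 (0.862) and Ado (0.854), and for Gclm Erp44 (0.926), Rere (0.919) and Golph3 (0.911). Cat was followed by Tmem98 (0.862), Hsd17b4, a peroxisomal enzyme (0.849), and Iba57 (0.849), and Gpx1 by Ap3s1 (0.895), Hsd17b12 (0.888) and Nln (0.882). For Mt1 they were the proton pump genes Atp6v1h (0.884) and Atp6ap2 (0.868) and Tbc1d20 (0.820), and for Mt2 S100a9, a calcium-binding protein of neutrophils (0.825), Cgref1 (0.798) and Atp6ap2 (0.783).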

How the data were processed

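Poly(A) RNA of 18 rectus femoris muscles was sequenced in paired ends, per the labels' protocols. Per the submitters' processing notes the authors aligned reads with STAR to mm10, while how reads were counted, with which annotation and strand setting, is not given in the sources used here. What the authors deposited is a signal, counts that the authors had scaled to a common total of 74.0 M per library, and 100% of values were whole multiples of a library's step within 0.001 reads, so reads could be recovered (64.2 to 85.4 M per library). Of 25604 rows, 24431 were genes, 1146 transposable-element families and 27 carried dates in place of symbols (0.0628 to 0.0831% of counts, left out). The name of the column mapped to young untreated female 1 has the number 2, and the labels decided its group.

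The 16060 genes whose mean reached 10 were tested on log2 of the value plus 1 with limma 3.58.1 in R 4.3.3 (lmFit, eBayes with a trend, arm and sex, 14 residual degrees of freedom), with p-values adjusted by Benjamini-Hochberg over the whole table and a threshold of 0.05. Sex differences in the changes came from a model of the 6 combinations of arm and sex. edgeR 4.0.16 and DESeq2 1.42.0 were run on recovered reads as alternatives, beside other scaling, filters, pseudocounts, covariates and left-out libraries. Of these fits, those of limma and edgeR for the age and 3TC changes were tested on simulated data, with results not given here. Members and gene lists were chosen with earlier results of these data known. Named genes are all members, list genes that passed, or else up to 2 of a list with the smallest p, and the 3 genes most alike to each member. Nfe2l2, named as the gene of NRF2, and Srxn1 and Txnrd1 fall outside this rule and were chosen after their values were seen. Promoters came from RefSeq (GRCm38.p6) and coordinates from GENCODE on GRCm38.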

Additional observations from a re-analysis of the deposited data

Results flagged for a closer look

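In 4 of 30 groups of 6 libraries (10 genes in 3 arms), 1 library stood apart from the others. The gap was a larger part of the group's whole range than Dixon's 95% critical value. For normally distributed values chance alone flags about 1 group in 20. The rule was applied to normalised counts, and the flags were not checked on the log2 values used in the tests. Mt2 reached 3262.006 normalised counts in old untreated male 1 (gap 0.8895 of the range), the library with the highest summed brain markers of its arm. Gclc reached 1990.527 in old 3TC male 2 (gap 0.8576), the library with the highest summed liver markers and the second highest Cat value. Gclm reached 3493.944 in old untreated female 1 (gap 0.838), which was also the highest library for Nqo1, Sod1 and Cat. Cat reached 10996.908 in young untreated female 8 (gap 0.6919), the library with the second highest summed liver markers. The part of liver transcripts in the Gclc and Cat values of these single libraries was not tested, nor was that of brain transcripts in the Mt2 value.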

How the results depend on the processing

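With 3TC no member and no gene of the table was called under any alternative run, and 0 members were called between old 3TC and young untreated muscle under any of them. Nqo1, Sod1, Mt1 and Mt2 kept a positive age change under every alternative. Nqo1 was called without young untreated female 8, and at an adjusted p under 0.10 Nqo1 and Mt1 were called (2 members). Genes called with age numbered 59, but 24 with median-of-ratios scaling, 991 with array weights, 4 with edgeR, 221 with DESeq2, 14 with no sex term, 4 with liver and brain scores as covariates, 0 with the replicate block, 2 with old untreated female 1 and male 1 left out together, 1 with liver, macrophage, adipocyte and red blood cell scores, 450 with old 3TC male 2 and young untreated female 8 left out together, 2 with a macrophage score and 985 with an adjusted p under 0.10. Genes called between old 3TC and young untreated muscle numbered 2, but 8 with array weights, 120 with DESeq2, 4 with only the 2 arms compared, 4 with liver and brain scores as covariates, 0 with the replicate block, 6 with old untreated female 1 and male 1 left out together, 1 with liver, macrophage, adipocyte and red blood cell scores, 7 with old 3TC male 2 and young untreated female 8 left out together and 9 with an adjusted p under 0.10. Genes called between females and males numbered 374, but 722 with array weights, 963 with DESeq2, 214 with liver and brain scores as covariates, 82 with liver, macrophage, adipocyte and red blood cell scores, 73 with a macrophage score and 599 with an adjusted p under 0.10. Genes called for the sex difference in the age change numbered 0, but 2 with liver and brain scores as covariates. Between females and males 0 members were called with array weights, liver and brain scores as covariates, old untreated female 1 and male 1 left out together, liver, macrophage, adipocyte and red blood cell scores, old 3TC male 2 and young untreated female 8 left out together and a macrophage score.

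Some uncalled member values took the opposite sign, and with median-of-ratios scaling these were −0.0062 for Hmox1 and −0.027 for Gpx1 with age, 0.067 for Gpx1 with 3TC, −0.023 for Sod2 between old 3TC and young untreated muscle, and 0.029 for Gclm between females and males. With array weights they were −0.070 for Gclm and 0.017 for Sod2 with age, −0.010 for Gclc and −0.011 for Sod2 with 3TC, and −0.023 for Sod1 between females and males. With edgeR they were −0.013 for Hmox1 with age, 0.040 for Gpx1 with 3TC, −0.015 for Sod2 between old 3TC and young untreated muscle, and 0.082 for Gclm between females and males. With DESeq2 they were −0.022 for Hmox1 and −0.0044 for Gpx1 with age, 0.043 for Gpx1 with 3TC, −0.020 for Sod2 between old 3TC and young untreated muscle, and 0.089 for Gclm between females and males. With liver and brain scores as covariates they were 0.11 for Gclc with age, −0.019 for Sod2 with 3TC, 0.14 for Gclc and −0.069 for Sod2 between old 3TC and young untreated muscle, and −0.072 for Sod1 between females and males. With the replicate block they were 0.0060 for Gpx1 with 3TC, and 0.013 for Gclc and −0.087 for Sod2 between old 3TC and young untreated muscle. With old untreated female 1 and male 1 left out together they were −0.15 for Gclm and 0.044 for Sod2 with age, −0.041 for Sod2, 2.1e-06 for Mt1 and 0.29 for Mt2 with 3TC, and −0.060 for Sod1 between females and males. With liver, macrophage, adipocyte and red blood cell scores they were −0.085 for Hmox1, 0.11 for Gclc, −0.087 for Cat and −0.085 for Gpx1 with age, 0.068 for Hmox1, −0.041 for Sod2 and 0.071 for Gpx1 with 3TC, 0.25 for Gclc, −0.15 for Sod1, −0.33 for Sod2, −0.31 for Cat and −0.014 for Gpx1 between old 3TC and young untreated muscle, and 0.043 for Gclm and −0.024 for Sod1 between females and males. With old 3TC male 2 and young untreated female 8 left out together they were −0.16 for Gclc with 3TC, and 0.013 for Gclc, 0.022 for Gclm and −0.015 for Sod1 between females and males. With a macrophage score they were −0.32 for Hmox1 with age, 0.019 for Hmox1 with 3TC, and 0.086 for Gclm between females and males. With scaling to gene rows only they were −0.035 for Sod2 between old 3TC and young untreated muscle, and 0.014 for Gclm between females and males. The causes of these turns were not tested.

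Leaving out 1 library at a time gave 2 to 608 genes called with age (the fewest without old untreated male 1, the most without young untreated male 8, with 0 to 1 members), 2 to 16 between old 3TC and young untreated muscle, and 243 to 507 between the sexes (0 to 1 members). Of the member changes that crossed 0 this way, the age change was −0.094 to 0.32 for Gclm and −0.10 to 0.010 for Sod2. The 3TC change was −0.16 to 0.10 for Gclc, −0.19 to 0.053 for Gpx1 and −0.51 to 0.11 for Mt2. Old 3TC muscle differed from young untreated muscle by −0.13 to 0.075 for Hmox1, −0.26 to 0.030 for Gclc, −0.053 to 0.068 for Sod2 and −0.027 to 0.18 for Gpx1. Females differed from males by −0.13 to 0.067 for Gclc, −0.21 to 0.062 for Gclm and −0.043 to 0.047 for Sod1. No label says that a replicate number marks a shared animal, litter or day. Deviations from the group means of same-numbered libraries correlated between −0.062 and 0.19 over 7 pairs, of which 3 lay over 0.1, so pairing was neither shown nor excluded. Young untreated female 1, whose column has the number 2, entered both these pairs and the replicate block by its label. With the replicate block 4 residual degrees of freedom remained, 0 members were called, and the age change was 1.66 for Mt1 and 2.23 for Mt2. Sex differences in the age and 3TC changes changed direction for 6 and 8 of 10 members in at least 1 alternative. The 4 alternatives that leave out a pair of libraries, use the 4 scores together or use the macrophage score were chosen after seeing the data. With 6 libraries an arm, changes smaller than their 95% intervals could not be resolved.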
